A study of Mus musculus with 24 samples.

Results

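miR-21 (probe mmu-miR-21) was followed through 24 samples of the JygMC(A) model of metastatic mammary carcinoma, as 1 of the 566 mouse miRNAs on an nCounter panel, an assay that counts a fluorescent barcode for each miRNA without amplification. It was taken by its name, without a threshold on its values, at a time when earlier results of these data were known. The samples were 5 carcinoma areas and 7 EMT-like areas (spindle-shaped cells, epithelial-to-mesenchymal transition) of primary tumors (together PT, 12 samples), 4 lung metastases, 2 normal mammary glands (NMG), 2 normal lungs, 2 monolayer cultures and 2 third-generation 3D-sphere cultures. All tumor samples and cultures derived from 1 transduced mouse mammary carcinoma line, JygMC(A)-GFP/Luc, sorted for its reporters and injected without further treatment into the mammary fat pads of female Balb/C nude mice, which lack T cells. The tissues were laser captured. They are bulk samples in which host cells remain, and fewer cells of a type cannot be told apart from less of a miRNA per cell. The labels of 1 carcinoma, 1 EMT-like and 1 lung metastasis sample name 3 animals each, and several tumor samples share an animal. The normal mammary gland and normal lung came from 2 further animals, each giving both tissues, and the labels give neither their strain nor whether they bore tumors. The labels call the 2 cultures of each kind biological replicates. They do not say whether these were grown on separate days, so part of the spread between them may be technical.

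MicroRNAs are short RNAs that guide the silencing machinery to messenger RNAs, mainly by pairing through the seed near the 5′ end. miR-21 is among the best known oncomiRs, miRNAs that promote tumors. It is raised in many carcinomas including breast cancer, is also made by fibroblasts and immune cells of the stroma, and represses Pdcd4, a tumor suppressor. Its hairpin lies at the end of the gene for vacuole membrane protein, Vmp1.

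The sequences are shown because the panel has 1 probe for the miR-21 family by name and mouse RefSeq lists 3 related loci. In RefSeq (GRCm38.p6) the strand that the probe is named for, mmu-miR-21a-5p, lies on the minus strand at chr11:86584120-86584141. Capitals mark the seed, bases 2 to 8. mmu-miR-21c, at chr8:128278188-128278208 on the minus strand, has the same seed, and mmu-miR-21b, at chr3:29636768-29636790 on the plus strand, does not.
mmu-miR-21a-5p: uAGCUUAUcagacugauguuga
mmu-miR-21c: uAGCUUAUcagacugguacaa
mmu-miR-21b: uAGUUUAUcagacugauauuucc
Counted from the 5′ end of miR-21a-5p, miR-21c carries A16G, G18A, U19C, U20A and G21A and is shorter by 1 base. miR-21b carries C4U, within the seed, with G18A, G21U and A22C, and is longer by 1 base. Of the 1679 mature mouse names in the table, which is not complete, 2 hold the miR-21 seed, and only mmu-miR-3965 and mmu-miR-3967 lie within 4 edits of miR-21a-5p. Whether the probe also takes up these RNAs was not tested. The hairpin, 92 bases at chr11:86584067-86584158, has the measured strand at bases 18 to 39, in capitals, and the opposite strand at bases 56 to 77.
Mir21a hairpin: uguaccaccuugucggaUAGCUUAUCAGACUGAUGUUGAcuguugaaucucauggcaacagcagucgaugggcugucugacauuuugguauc
It lies inside the span of Vmp1 (chr11:86583858-86683836, minus strand), 209 bases from the 3′ end of that gene. The opposite strand, miR-21b and miR-21c have no probe of their own on the panel. miR-590-5p, known as a member of the same seed family, has one, and it was detected in 0 of 24 samples.

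Each deposited value is a count reduced by the lane's own background, the mean of its 6 negative controls, and no scaling between lanes had been applied. A miRNA was taken as detected above the mean plus 2 SD of those controls, a limit of 4 to 21.4 counts. The sum of the mouse miRNA values differed between lanes. It was 110552 to 183539 in PT, 61497 to 114004 in lung metastasis and 24418 to 44953 in the cultures. It was higher in the normal tissues, where it reached 2334955 in normal lung replicate 2. For that lane the scaling factor was 16.5 by the miRNA total and 0.86 by the mRNA controls of the panel. Whether the sum follows the amount of material in a lane was not tested. The values are therefore given on 3 scales, namely the deposited value, the value after TMM scaling between lanes (the scaled value) and the percent of the summed mouse miRNA values (the share).

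miR-21 was detected in 23 of the 24 samples, in all 20 tissues and in 3 of the 4 cultures. In the 5 carcinoma samples its deposited values were 1898, 2050, 3940, 2779 and 4863, and its scaled values were 2105, 2422, 3772, 3471 and 6628. In the 7 EMT-like samples the scaled values ran from 2282 over a median of 3589 to 5734. The carcinoma and EMT-like values interleaved, with 1 carcinoma sample below and 1 above all EMT-like samples. In lung metastasis the scaled values were 1703, 2922, 1023 and 2782, so that 2 of the 4 metastases were below every PT sample. NMG gave 2736 and 3823, and normal lung gave 2195 and 2608. These normal values fell inside the range of PT, 2105 to 6628. The monolayer samples gave 334 and 10.2, the latter from a deposited value of 5 under a limit of 16.9. The spheres gave 223 and 292. All 4 cultures were below all 20 tissues on each of the 3 scales, and the lowest tissue exceeded the highest culture by 3.71-fold in deposited values, 3.06-fold in scaled values and 1.26-fold in share.

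**Figure D1:**
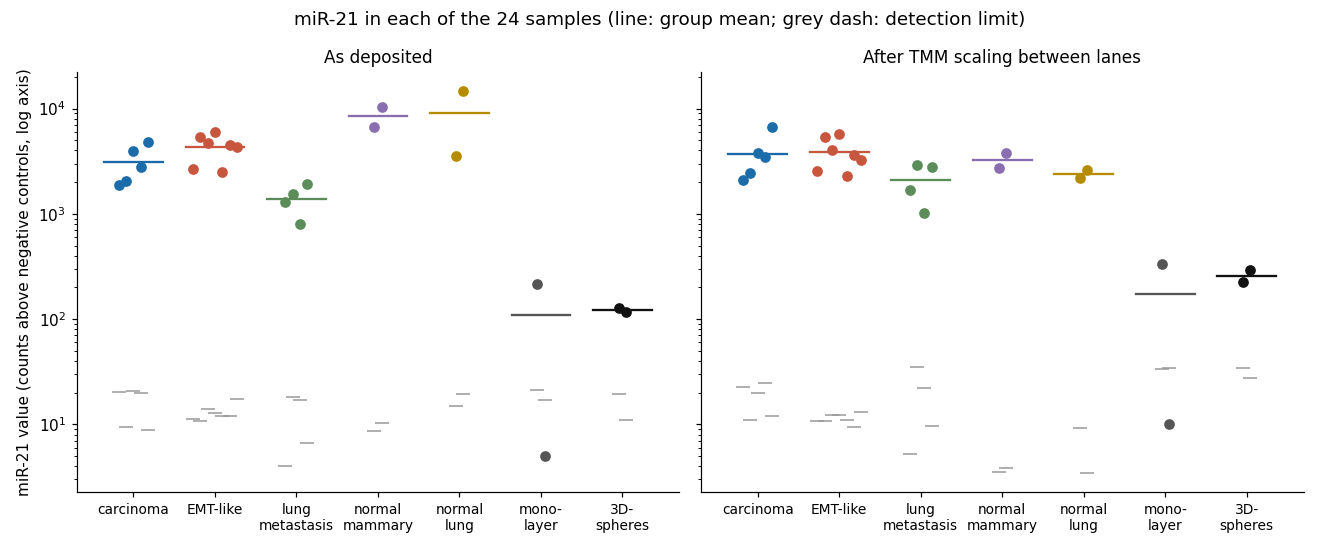
Value of miR-21 in each sample (points, log axis) by group, as deposited (left) and after TMM scaling (right), with group means as lines and the detection limit of each sample as a grey dash. The 20 tissues lie between 797 and 14695 as deposited and between 1023 and 6628 after scaling, and the cultures at or below 215 and 334.

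In order of the mean of log2(scaled value + 1), the groups were EMT-like areas (11.83), carcinoma (11.72), NMG (11.66), normal lung (11.22), lung metastasis (10.92), 3D-spheres (8.002) and monolayer (5.94). With limma on all 24 samples and 583 probes, none of the first 5 groups was called different from its neighbour in this order. The step from lung metastasis down to the spheres was 2.92 on the log2 scale (standard error 0.79, adjusted p = 0.00897 with limma, which called 18.0% of probes for this pair). The last step, from the spheres to the monolayer, was not called. This order holds for TMM scaling. By mean share it was EMT-like areas (2.81%), carcinoma (2.34%), NMG (1.57%), lung metastasis (1.53%), normal lung (0.615%), spheres (0.364%) and monolayer (0.249%).

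The share of miR-21 in the miRNA total was 1.35%, 1.76%, 2.43%, 2.45% and 3.69% in carcinoma. In EMT-like areas it ran from 1.75% over a median of 2.51% to 4.25%. It was 1.16%, 2.49%, 0.813% and 1.68% in lung metastasis, 1.19% and 1.96% in NMG and 0.601% and 0.629% in normal lung. In the monolayer it was 0.478% (95% Wilson interval 0.419% to 0.546%) and 0.0205% (0.00875% to 0.0479%), and in the spheres 0.349% (0.294% to 0.415%) and 0.379% (0.316% to 0.453%). These intervals take the values as counts and cover counting error only. Counting error was small beside the spread within PT, where the share of the carcinoma sample at 1.35% had an interval of 1.29% to 1.41%.

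**Figure D2:**
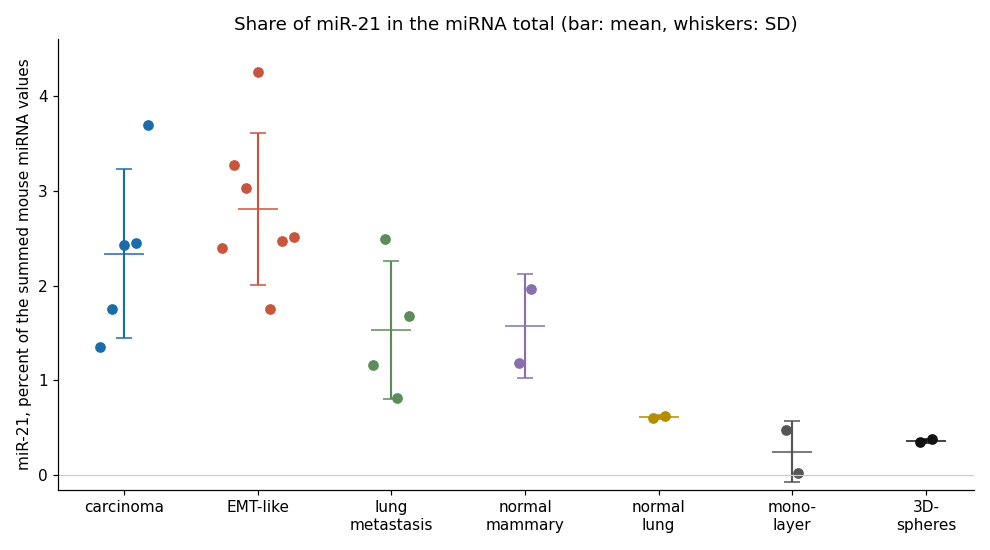
Share of miR-21 in the summed mouse miRNA values (points, one per sample) by group, with the mean as a bar and the SD as whiskers. PT samples lie between 1.35% and 4.25%, normal lung at 0.601% and 0.629%, and the cultures at or below 0.478%.

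Among the 566 mouse miRNAs of a lane, miR-21 ranked 4th to 17th in PT, 8th to 22nd in lung metastasis, 16th and 19th in NMG, and 34th and 36th in normal lung. It ranked 33rd and 251st in the monolayer and 38th and 39th in the spheres. Ranks compare probes as counted, and probes may differ in efficiency. The probe with the highest median share in both kinds of PT area was miR-720, now regarded as a tRNA fragment, at 24.2% in carcinoma and 24.2% in EMT-like areas. It was followed by let-7c and let-7b, tumor-suppressing let-7 members, at 6.82% and 5.17% in carcinoma. In normal lung the endothelial miR-126-3p led with 16.0% and the red blood cell miR-451 followed with 11.3%. The 15 probes for such RNA fragments held 3.29% to 41.0% of the total. Without them the share of miR-21 was 3.71% ± 1.14 (SD, n = 12) in PT.

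The first comparison asked whether miR-21 differs between the epithelial and the spindle-shaped parts of primary tumors. In carcinoma the scaled value averaged 3679 ± 1789 (SD, n = 5), and in EMT-like areas 3841 ± 1335 (SD, n = 7). The difference, carcinoma minus EMT-like, was -0.11 on the log2 scale (standard error 0.54, 95% interval -1.22 to 1.005, adjusted p = 1 with limma). With limma, 0.172% of the 583 probes were called in this comparison. By share the difference was -0.47 percentage points (exact two-sided permutation test, p = 0.357, adjusted over the 6 comparisons of shares 0.429). Of the epithelial markers (the miR-200 family, miR-203 and miR-205), the summed scaled value was 930 to 5385 in carcinoma and 59.4 to 1758 in EMT-like areas, with medians of 2806 and 396. The 2 lowest carcinoma samples of this list were below the 2 highest EMT-like samples, and the list was not tested. Within the 4 pairs of areas that share an animal label, of which 1 label names 3 animals, the scaled value of miR-21 was lower in carcinoma in 3, with log2 differences from -1.16 to 0.21. Its share was lower in carcinoma in 4 of 4 pairs, with differences from -1.51 to -0.557 percentage points. In one pair the scaled values were 2422 in carcinoma and 5426 in the EMT-like area, and in another 6628 and 5734. Pairs this few were not tested.

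**Figure D3:**
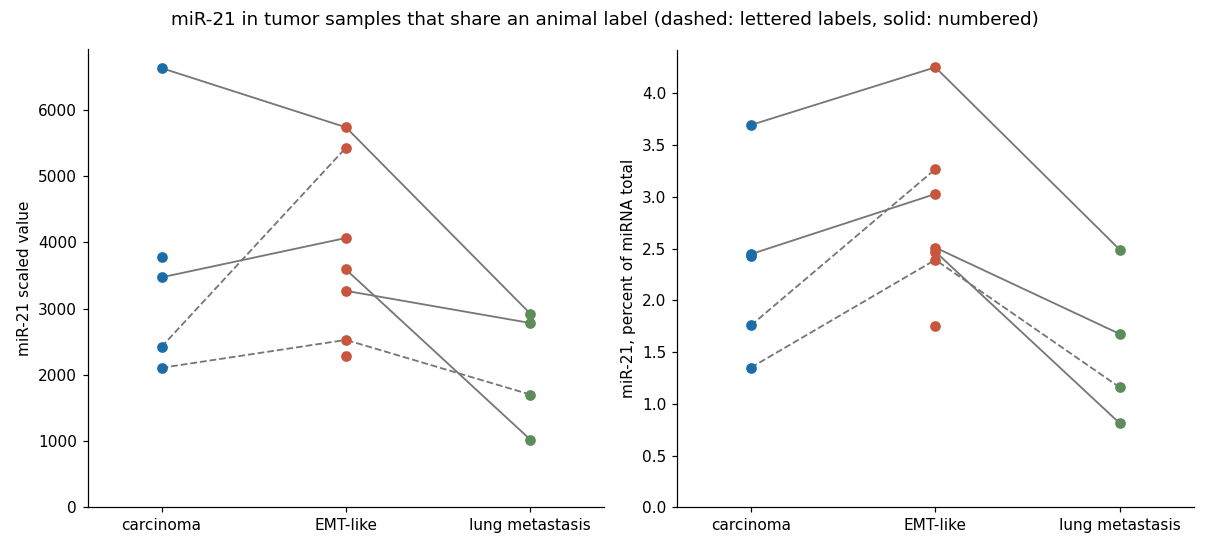
miR-21 in carcinoma, EMT-like and lung metastasis samples, as scaled value (left) and as percent of the miRNA total (right), with lines between samples of one animal label (dashed for lettered, solid for numbered labels). All 4 lines from an EMT-like area to a metastasis run downward on both scales.

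The second comparison asked how the primary tumors relate to normal mammary tissue. The scaled value of miR-21 was 3279 ± 769 (SD, n = 2) in NMG and 3774 ± 1464 (SD, n = 12) in PT. Carcinoma minus NMG was 0.06 (standard error 0.76, adjusted p = 1) and EMT-like minus NMG 0.17 (standard error 0.73, adjusted p = 0.959), both on the log2 scale with limma. Here limma called 29.3% of the 583 probes in carcinoma and 24.9% in EMT-like areas against NMG, and miR-21 was in neither set. Both comparisons use the same 2 NMG samples. The intervals, -1.53 to 1.65 and -1.35 to 1.70, leave room for changes of over 1 log2 unit in either direction. The sign depended on the scale. By deposited value 12 of 12 PT samples were below both NMG samples (6639 and 10298), and by share 9 of 12 were above both. The mean share was 1.04 percentage points higher in PT than in NMG, which did not pass the test (exact two-sided permutation test, p = 0.143, adjusted 0.214). Without NMG replicate 1 it was 0.652 points (exact permutation p = 0.538). Without scaling, carcinoma minus NMG was -1.51 and EMT-like minus NMG -1.01, beside medians of all probes of -1.83 and -1.16. Set against the median of all probes, miR-21 stood 0.30 to 0.84 higher in carcinoma and 0.14 to 0.84 higher in EMT-like areas over the 9 scalings. Under TMM scaling, the 130 miRNAs detected in every PT sample had medians against NMG of -0.05 in carcinoma and -0.36 in EMT-like areas. Among these, chosen for their presence in tumors, miR-21 ranked 70th and 79th from the lowest. Markers of other cells also differed, since the summed endothelial miR-126 strands were 1067 to 2626 in PT and 10971 to 17649 in NMG. The mesenchymal miR-199a-3p, miR-199a-5p and miR-214 summed to 882 to 2844 and 8645 to 9125. Their part in the miR-21 values was not tested.

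The third comparison set lung metastasis against PT. Metastases averaged a scaled miR-21 value of 2107 ± 905 (SD, n = 4), against 3774 ± 1464 (SD, n = 12) for PT. Metastasis minus PT was -0.86 on the log2 scale (standard error 0.53, 95% interval -1.96 to 0.23), which did not pass the test over all probes (adjusted p = 0.505 with limma). In this comparison limma called 0.515% of probes higher and 2.57% lower. The error of that fit is shared by all groups, and the monolayer pair, at 8.39 and 3.48 on the log2 scale, adds to it. With the 20 tissue samples alone in the fit, chosen after the data were seen, the standard error was 0.31 and the adjusted p = 0.116 with limma. Taken as a single value, the same difference gave p = 0.0214 in an exact two-sided permutation test. This test and that of the shares treat the samples as independent, though several share an animal label. The share was 1.53% ± 0.729 (SD, n = 4) against 2.61% ± 0.834 (SD, n = 12), a difference of -1.08 percentage points (exact two-sided permutation test, p = 0.0363, adjusted over the 6 comparisons 0.109). Without lung metastasis replicate 1, 3 or 4 or EMT-like replicate 2 this exact p became 0.103, 0.119, 0.0637 and 0.0564. The difference was negative under each of the 9 scalings, from -1.51 to -0.83. It was -0.56 (adjusted p = 0.833 with limma) without lung metastasis replicate 3 and -1.06 to -0.78 without each of the other samples.

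Among samples that share an animal label, the metastasis had a lower scaled value of miR-21 than the EMT-like area in 4 of 4 pairs and than the carcinoma area in 2 of 2. In 1 pair of each kind, both with lung metastasis replicate 1, the shared label names 3 animals, so these are not pairs within 1 animal. For the EMT-like pairs the scaled values were 1703 against 2527, 2922 against 5734, 1023 against 3589 and 2782 against 3267. The log2 differences were -0.57, -0.97, -1.81 and -0.23, a mean of -0.90. The share differences of these 4 pairs were -1.76 to -0.835 percentage points. Each pair points the same way, and the size of the step differs between pairs. The 2 series of animal labels, lettered and numbered, were also taken apart, and the share in metastasis minus PT was -1.08 percentage points within the lettered series (exact permutation p = 0.333) and -1.22 within the numbered series (exact permutation p = 0.075). With the series as a term among tumor samples the log2 difference was -0.92 (adjusted p = 0.142 with limma). The summed mesenchymal markers were 230 to 995 in metastasis and 882 to 2844 in PT, and the red blood cell miR-144 and miR-451 summed to 311 to 476 and 72.0 to 263. Their part in the lower miR-21 was not tested.

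The fourth comparison set lung metastasis against normal lung. The scaled value of miR-21 was 2401 ± 292 (SD, n = 2) in normal lung, and metastasis minus normal lung was -0.30 on the log2 scale (standard error 0.79, 95% interval -1.95 to 1.34, adjusted p = 0.806 with limma). Of the 583 probes, limma called 49.2% here. The sign again depended on the scale, since all 4 metastases were below both normal lungs by deposited value and above both by share. Without scaling the difference was -2.45 (adjusted p = 0.0123 with limma), beside a median of all probes of -2.33. The share was higher by 0.919 percentage points, and with 15 ways to split 4 and 2 samples the exact two-sided permutation test gave p = 0.133, where the smallest value possible is 0.0667. Without lung metastasis replicate 2 the share difference was 0.601 points. The normal lung samples held the highest sums of miR-126 strands, 67772 to 70141, against 819 to 3114 in metastasis, and 47915 to 55257 of the red blood cell miRNAs. These enter the total by which a share is divided. Normal lung minus NMG was -0.43 (standard error 0.91, adjusted p = 0.825 with limma, 11.7% of probes called), and in both animals that gave both tissues the lung was lower, with log2 differences of -0.32 and -0.55. It was -0.19 without NMG replicate 2 and -0.68 without NMG replicate 1. The tumor minus normal difference in lung was compared with that in the mammary gland by an interaction contrast, which was -0.43 (standard error 1.06, adjusted p = 0.879 with limma, 11.5% of probes called). It was -0.12 without lung metastasis replicate 3, -0.19 without NMG replicate 1 and -0.67 without NMG replicate 2.

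**Figure D4:**
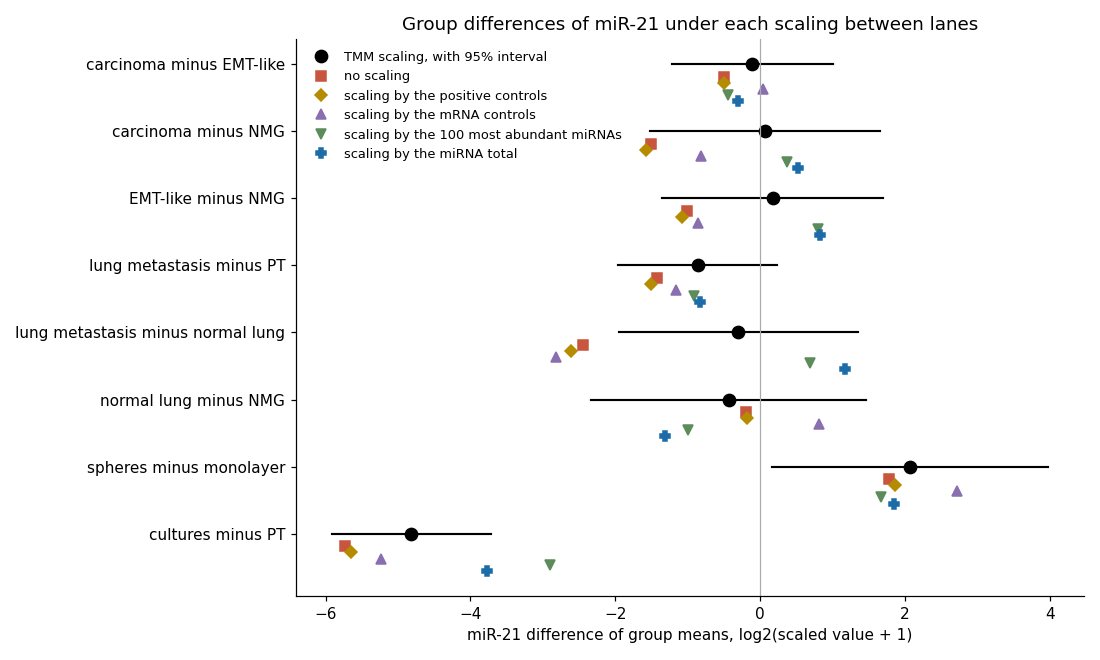
Group differences of miR-21 on the log2(scaled value + 1) scale, with the TMM value and its 95% interval (black) and the values under 5 other scalings (coloured). The cultures minus PT values lie between -5.73 and -2.90, and lung metastasis minus normal lung ranges from -2.81 to 1.18.

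The fifth comparison set the cultured cells against the tumors grown from them. The scaled value of miR-21 was 215 ± 144 (SD, n = 4) in the cultures and 3774 ± 1464 (SD, n = 12) in PT. Cultures minus PT was -4.82 on the log2 scale (standard error 0.53, 95% interval -5.92 to -3.72, adjusted p = 1.55e-07 with limma), a 28.2-fold lower mean on the log2(value + 1) scale. Here limma called 30.4% of the 583 probes, 22.0% lower and 8.40% higher, so a lower value in the cultures was common. The ratio of the arithmetic means was 17.6 for scaled values, 32.6 for deposited values and 8.52 for shares. The share was 0.307% ± 0.199 (SD, n = 4) against 2.61% ± 0.834 (SD, n = 12), a difference of -2.31 percentage points (exact two-sided permutation test, p = 0.000549, the smallest these samples allow, adjusted 0.0033). Groups did not overlap, as the highest culture share was 0.478% and the lowest PT share 1.35%. The size rests in part on monolayer replicate 2. Without it the log2 difference was -3.59 (adjusted p = 5.85e-08 with limma), and without monolayer replicate 1 it was -6.04 (adjusted p = 8.28e-12 with limma). The smallest difference over the alternatives was -2.90, under scaling by the 100 most abundant miRNAs. Adjusted p values with limma were between 7.19e-09 and 5.06e-05 over the settings that do not leave out single samples. The highest came from the fit of only the groups compared.

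Among the 130 miRNAs detected in every PT sample, which were thus chosen for their presence in tumors, miR-21 had the 17th lowest difference. The median of the 130 was -1.49. In metastasis against PT it had the 21st lowest difference of the 130, with a median of 0.10. Of the markers of host cells, those of endothelium, mesenchyme and red blood cells were also lower in the cultures. Both strands of the endothelial miR-126 summed to 0 in each of the 4 cultures and to 1067 to 2626 in PT. The mesenchymal markers were detected in none of the cultures (summed value 4.66 to 26.1) and summed to 882 to 2844 in PT, and the red blood cell miRNAs summed to 0 against 72.0 to 263. The smooth muscle miR-143 and miR-145 summed to 404 to 1371 in the cultures and 765 to 1689 in PT. Of these, miR-145 was detected in 4 of 4 cultures, while miR-143 was not detected in the spheres. Cultures minus PT was -0.69 for miR-145 (adjusted p = 0.0404 with limma) and -4.88 for miR-143 (adjusted p = 3.69e-06 with limma). The muscle miR-1, miR-133a, miR-133b and miR-206 summed higher in the cultures, 104 to 169 against 10.5 to 75.2. Of 5 immune cell markers, miR-142-3p and miR-223 were not detected in any culture, while the summed value was 764 to 1130 in the cultures and 572 to 1243 in PT. In that sum miR-155 alone, whose probe name states a carryover from a positive control, held 665 to 1031 in the cultures and 289 to 431 in PT. The 5 miR-200 family members were not detected in any culture, while miR-203 was detected in 2 monolayer samples and miR-205 in 1. The whole epithelial list summed to 54.5 to 112 in the cultures and 59.4 to 5385 in PT. How much of the miR-21 in tumors came from host cells was not tested.

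**Figure D5:**
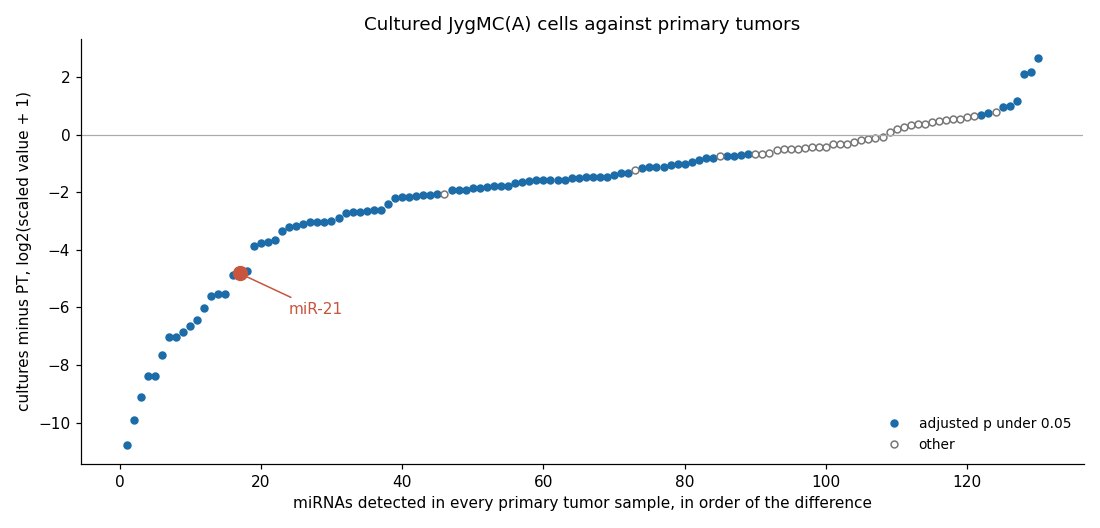
Difference between cultures and PT on the log2(scaled value + 1) scale for the 130 miRNAs detected in every PT sample, in ascending order, with filled points for adjusted p under 0.05 with limma. miR-21 (red) is 17th from the lowest, at -4.82, and 86 of the 130 were called lower and 8 higher.

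The last comparison set 3D-spheres, grown without attachment to enrich for stem-like cells, against the monolayer. Spheres minus monolayer was 2.07 on the log2 scale (standard error 0.91, adjusted p = 0.284 with limma), and limma called 2.92% of probes higher and 1.72% lower. This value came from 1 sample. Without monolayer replicate 2 the difference was -0.39 (adjusted p = 1 with limma) and without monolayer replicate 1 it was 4.52 (adjusted p = 6.29e-05 with limma). miR-21 was not detected in monolayer replicate 2, and set at its detection limit that sample was 3.24 lower than replicate 1 on the log2 scale, which is a lower bound on their difference. The fitted values that include this sample, here and for cultures minus PT, rest on a value below that limit. The spheres differed from each other by 0.39. The shares gave an exact two-sided permutation p of 1, and 2 against 2 samples cannot go below 0.333.

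Other miRNAs with known roles in tumors were read for comparison. Of 16 that promote tumors (the miR-17-92 members, miR-221, miR-222, miR-9, miR-10b, miR-27a, the miR-183 cluster, miR-155 and miR-210, with miR-17 and miR-20a read by probes shared with miR-106a and miR-20b), 1 rose and 8 fell in the cultures against PT, where 8.40% of all probes were called higher and 22.0% lower. Their median was -1.56, against -0.08 over all 583 probes and -1.49 over the 130 miRNAs detected in every PT sample. Of those 130, 86 were called lower and 8 higher. Of 14 that restrain tumors (let-7a, let-7b, let-7c, miR-15a, miR-16, miR-31, miR-34a, miR-125a-5p, miR-125b-5p, miR-126-3p, miR-145, miR-205, miR-206 and miR-335-5p), 1 rose and 8 fell, beside the same shares of all probes, with a median of -0.71. The other let-7 probes were not in this list. Among the promoting miRNAs that fell, the hypoxia miRNA miR-210 had a scaled value of 148 ± 36.4 (SD, n = 12) in PT and 39.9 ± 7.51 (SD, n = 4) in the cultures. The probe shared by miR-17 and miR-106a gave 1127 ± 468 (SD, n = 12) and 327 ± 324 (SD, n = 4). The one that rose was miR-155, from 367 ± 42.8 to 827 ± 154, a log2 difference of 1.16 (adjusted p = 0.000155 with limma). The name of its probe states a carryover from a positive control, and its deposited values were 413 to 442 in the cultures and 273 to 435 in PT.

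Against NMG, 4 of the 16 promoting miRNAs were higher and 1 lower in carcinoma (5.49% and 23.8% of all probes were called in these directions). In EMT-like areas 5 were higher and 0 lower (4.46% and 20.4% of all probes). Among the 130 miRNAs detected in every PT sample, 30 were called higher and 36 lower in carcinoma, and 24 and 42 in EMT-like areas. miR-155, whose probe name states the carryover, was higher in both (adjusted p = 0.000261 and 0.000274 with limma). Its deposited values were 260 to 345 in NMG and 273 to 435 in PT. The metastasis-promoting miR-9 rose in both kinds of area, with a scaled value of 841 ± 315 (SD, n = 12) in PT and 8.86 ± 7.28 (SD, n = 2) in NMG. miR-221, a repressor of cell cycle inhibitors, was 219 ± 94.99 (SD, n = 12) and 49.3 ± 7.41 (SD, n = 2). For these miRNAs the comparison with NMG was called where that of miR-21 was not. Of the restraining miRNAs, 3 rose and 4 fell in carcinoma, while 2 rose and 5 fell in EMT-like areas. The smooth muscle miR-145 was 950 ± 239 (SD, n = 12) in PT and 4972 ± 374 (SD, n = 2) in NMG, and the basal epithelial miR-205 was 48.1 ± 31.4 and 1410 ± 134. In lung metastasis against PT, 0 of the promoting miRNAs were higher and 3 lower (miR-10b, miR-27a and miR-210), and of the 14 restraining ones 0 were higher and miR-31 was lower. Over all probes 0.515% were called higher and 2.57% lower in this comparison, and of the 130 miRNAs 2 were higher and 11 lower.

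The pattern of miR-21 over the 24 samples was compared with those of the 56 other miRNAs detected in every sample, by the correlation of log2(scaled value + 1). The highest were let-7f (Pearson r = 0.85), the probe shared by miR-20a and miR-20b (0.81), miR-23b (0.80), miR-720 (0.78) and miR-146a (0.78), and the median was 0.47. The lowest were miR-1959 (-0.53), miR-1224 (-0.51) and miR-142-5p (-0.49). Deposited values of miR-1959 were low, at 20 to 49 in the cultures and 14 to 59 in PT. Those of miR-142-5p were 30 to 51 and 27 to 56. The points share lanes and scaling factors, and the cultures lie far from the tissues. Within the 20 tissues r fell to 0.04 for let-7f, -0.31 for miR-20a and miR-20b and 0.04 for miR-720, and was 0.33 for miR-23b and 0.44 for miR-146a. Among the 16 tumor samples miR-146a, an inhibitor of inflammatory signaling, stood at 0.84 and miR-23b at 0.74, where the median of the 56 was 0.10. The highest there, picked after the values were seen, was miR-29a, which represses collagens, at 0.93. It was followed by miR-27a (0.87) and miR-23a (0.86), which come from one transcript. Within the groups, as deviations from the group means of these 16 samples, r was 0.91 for miR-29a, 0.85 for miR-27a, 0.82 for miR-23a and 0.80 for miR-146a. Over all 24 samples miR-29a reached 0.40, and its scaled value was 1414 ± 742 (SD, n = 4) in the cultures and 1429 ± 421 (SD, n = 12) in PT, where that of miR-21 differed.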

How the data were processed

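Laser-captured tissues and cultured cells were lysed, and RNA purified with a miRNeasy Micro Kit was counted on nCounter Mouse miRNA panels. The authors deposited a table of other values than raw counts: from each count the average of the lane's negative controls had been subtracted, which leaves whole numbers down to -20. Partek is named in the submitters' processing notes, and the scaling of this assay is not given in the sources used here. The miRNA, the lists and the tests were chosen with earlier results of these data known. Groups came from the labels of the 24 samples. The most alike replicates had 9.01% of their values in common.

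Values floored at 0 were divided by TMM factors (log ratios trimmed by 30% and levels by 5%, with carcinoma replicate 2 as the reference lane). log2(value + 1) was fitted with limma (trend, empirical Bayes) in 7 groups over the 583 mouse and viral probes that exceeded 0 anywhere. Benjamini-Hochberg adjustment covered the 583, and a probe was called at an adjusted p under 0.05. PT is the mean of its 12 samples, and cultures weigh monolayer and spheres equally. Shares were divided by the sum of the 566 mouse miRNA values as deposited and compared by exact two-sided permutation tests. These tests take no account of samples that share an animal label. The fit was also run on simulated lanes with rises and falls of known size, drawn with equal odds. These were smaller than the largest changes seen here and no value was below 0. That run does not cover lopsided changes or floored values, and its outcome is not given here. miRNAs were named by rule (miR-21, its seed family, the leading shares, the 5 highest and 3 lowest correlations, and listed members), apart from the correlations within tumors. Sequences and positions came from RefSeq GRCm38.p6, and the exon structure of Vmp1 was not analysed here. The alternatives were 6 other scalings, a floor of 20 reached in 2 or more samples, a higher background, a pseudocount of 10, the groups compared alone, the animal or culture number as a replicate block, the series of animals and leaving out each sample. Further ones, chosen after seeing the data, were TMM without RNA-fragment probes, TMM against lung metastasis replicate 3 and the tissues alone. A sample left out kept the other factors, and a lone sample was assumed to vary like the other groups. R 4.3.3, limma 3.58.1, Python 3.11.15, numpy 2.4.6, pandas 2.3.3 and scipy 1.17.1 were used.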

Additional observations from a re-analysis of the deposited data

How the results depend on the processing

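The lower miR-21 in the cultures than in PT was called under each alternative run, with log2 differences of -6.07 to -2.90, and of -6.04 to -3.59 when each sample was left out. Its share difference stayed between -2.42 and -2.16 percentage points without each sample. The replicate block (animal label or culture number as a random block) gave -4.82 for cultures minus PT and -0.86 for metastasis minus PT and changed no call. Over 14 pairs with the same animal label or culture number and 56 probes the deviations from the group means correlated at a median of 0.002 (-0.544 to 0.72). In groups of 2 samples the deviations mirror each other. The culture pairs therefore repeat the same value (0.073), and so do the pairs of normal tissues (-0.068).

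Of the differences that changed sign, metastasis minus normal lung and spheres minus monolayer were called under some alternatives and the others under none of those run. The cause was not tested. Carcinoma minus EMT-like was 0.042 with the mRNA controls and -0.35 to 0.063 without each sample, and its share difference was 0.268 percentage points within the numbered series, and -0.81 to -0.23 without each sample. Carcinoma minus NMG was -1.51 without scaling, -0.81 with the mRNA controls, -1.58 with the positive controls, -0.28 with the higher background, -0.38 with TMM against lung metastasis replicate 3, and -0.18 to 0.31 without each sample. EMT-like minus NMG was -1.01, -0.86, -1.07 and -0.11 under no scaling, mRNA controls, positive controls and that other reference lane, and -0.069 to 0.41 without each sample. Metastasis minus normal lung was called lower without scaling (-2.45), with the mRNA controls (-2.81) and with the positive controls (-2.62). It turned to 0.69 with the 100 most abundant miRNAs, 1.18 with the miRNA total, 1.19 with the total without miR-21 and 0.17 with TMM without RNA-fragment probes, and ran from -0.50 to 0.0050 without each sample. Normal lung minus NMG was 0.81 with the mRNA controls. The interaction was 0.071 with the 100 most abundant miRNAs, 0.48 with the total, 0.48 with the total without miR-21 and 0.0068 with TMM without RNA-fragment probes. Spheres minus monolayer ran from -0.39 to 4.52 without each sample (called at 4.52, without monolayer replicate 1), and its share difference from -0.114 to 0.343 percentage points.

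The share in metastasis minus PT had an exact p above 0.05 without the RNA-fragment probes (-1.36 points, p = 0.0582) and within the lettered (-1.08) and the numbered series (-1.22), and ran from -1.40 to -0.84 without each sample (exact p 0.0176 to 0.119). Of 316 alternative values, 276 kept their direction and their side of the threshold. With 2 samples in each of 4 groups, differences under about 1.5 log2 units against them are within the 95% intervals of the fit of all 24 samples. Standard errors among tissues were smaller with the tissues alone in the fit. The monolayer value under the detection limit has no order below it.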
